A study of Mus musculus with 9 samples.

Results

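The imprinted growth genes described here were Zim1, Peg3, Peg10, Plagl1, Dlk1, Grb10, Mest, Ndn and Phlda2, chosen by name. All 9 were found among the 18738 protein-coding genes of the expression table. They were measured by bulk RNA-seq in heart cells labelled cardiomyocytes, isolated at postnatal day 0 from wild-type C57BL/6J pups. In the high-fat diet group (HFD) and the slight high-fat diet group (sHFD) the dams received that diet throughout pregnancy, and in the ND group they received a normal diet. Each diet had 3 libraries, and every group shared the strain, the genotype and the day of isolation. Below, HFD, sHFD and ND hearts stand for the libraries of these isolated cells, not for whole heart tissue. The labels give neither the composition of the diets nor the sex of the pups, and do not say whether a library pooled pups or which litter it came from. The p-values therefore measure the spread between these libraries, which may be technical. The study asked what changes in transcription accompany reduced cardiomyocyte proliferation in the hearts of HFD pups.

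An imprinted gene is transcribed mainly from the allele of 1 parent, because a control region near it was methylated in the egg or in the sperm and kept that mark after fertilization. Many imprinted genes act on prenatal growth, and they lie in clusters that share a control region. Peg3, Peg10, Plagl1, Dlk1, Mest and Ndn are expressed from the paternal allele in mouse, whereas Zim1, Phlda2 and, in most tissues, Grb10 are expressed from the maternal allele. Expression is given here in TPM, a level that is divided by transcript length and is relative to the total of the library. The parental alleles were not separated, so imprinting itself was not measured.

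Between HFD and ND hearts, Zim1 was the 1 gene of the group that rose past the threshold, on the log2 scale by 0.85 ± 0.23 (SE, n = 3 each). Between HFD and sHFD hearts, Peg10, Zim1 and Dlk1 rose, by 1.12 ± 0.26, 0.87 ± 0.23 and 0.65 ± 0.19 on the log2 scale (SE, n = 3 each). Ndn was lower in each HFD library than in every other library, and Mest was higher, but neither difference passed the threshold in either comparison. Peg3, Plagl1 and Grb10 overlapped between the diets, and Phlda2 was too low to be tested. Between sHFD and ND hearts 0 members passed. Differences were tested on log2(TPM + 1) with limma, a linear model fitted to the 13655 genes that averaged 1 TPM or more, and called at an adjusted p under 0.05.

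These counts stand against a wide background of change. In HFD against ND, 1 of 8 tested members was called, where 10.9% of all genes tested were called, 1.28% higher and 9.59% lower. Of the same 8, 3 were called in HFD against sHFD, all higher, where 34.2% of all genes were called, 10.3% higher and 23.9% lower. In sHFD against ND, 0 of 8 were called, and 0 had an unadjusted p under 0.05. That comparison called 1 gene in all, or 0.00732%, and 1005 genes had an unadjusted p under 0.05. The median log2 difference of the 8 members was 0.23 in HFD against ND and 0.34 in HFD against sHFD, beside medians of -0.14 and -0.16 over all genes. The split of all called genes depended on scaling. It was 175 higher and 1309 lower in HFD against ND, and 668 higher and 996 lower once each library was scaled by its median ratio. For HFD against sHFD it was 1406 higher and 3259 lower, and 2597 higher and 2622 lower with that scaling. Both HFD comparisons use the same HFD libraries and are not independent.

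**Figure D1:**
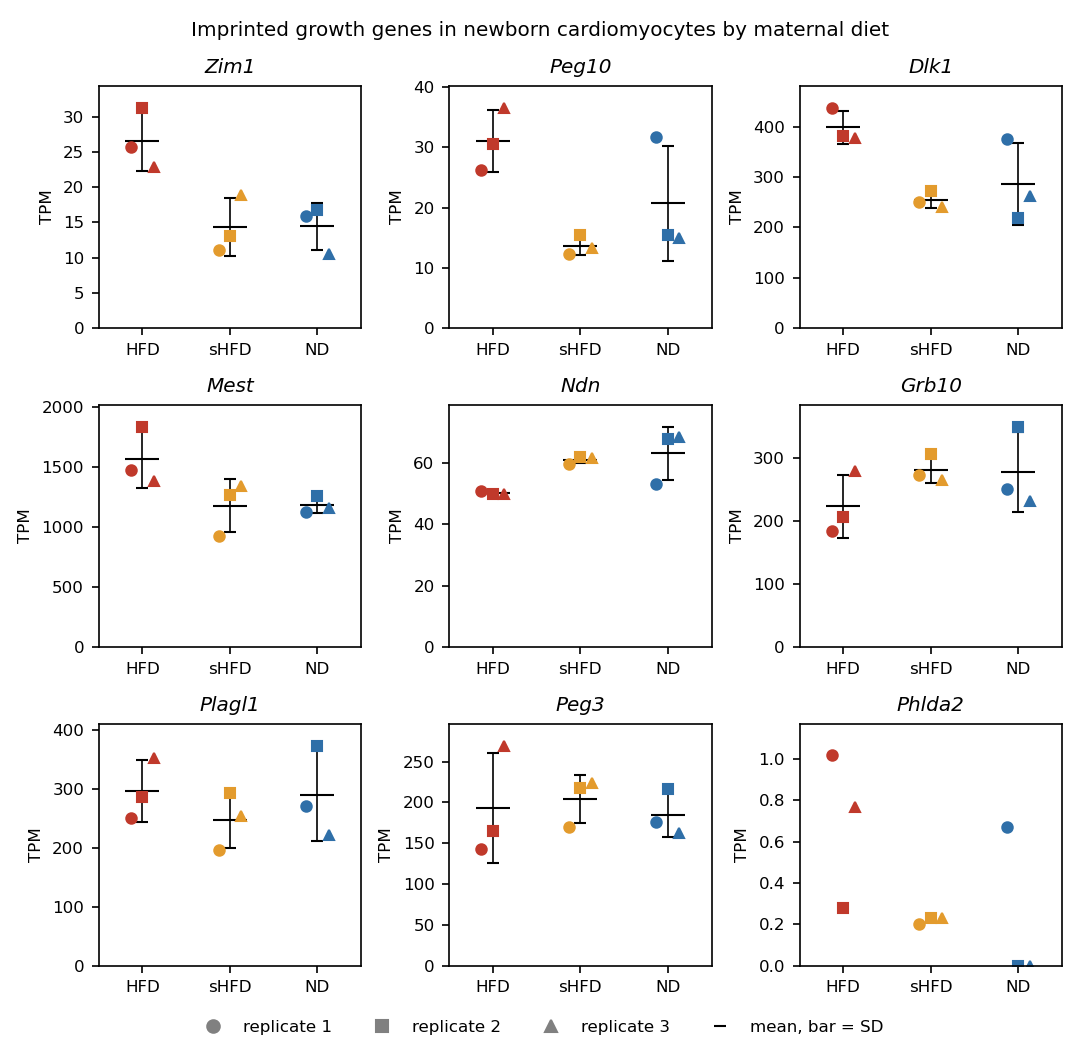
TPM of each imprinted growth gene in every library, on a linear axis of its own that starts at 0, with HFD, sHFD and ND from left to right; points are libraries, shaped by replicate number, and lines are the mean with its SD (n = 3; not drawn for Phlda2, which is listed at 0 in 2 ND libraries). Zim1 and Mest are higher in all HFD libraries than in any other, and Ndn is lower.

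The members ranged widely in level. Over the 9 libraries Mest averaged 1305 TPM, higher than 99.5% of the genes in the table. Dlk1, Plagl1, Grb10 and Peg3 averaged 313, 278, 261 and 194 TPM. Peg3 was the lowest of these in every library, whereas the order of Dlk1, Plagl1 and Grb10 differed between libraries. Ndn averaged 58.1 TPM. Peg10 and Zim1 averaged 21.8 and 18.4 TPM and overlapped each other, whereas Phlda2 averaged 0.378 TPM.

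Zim1 encodes a C2H2 zinc-finger protein and lies at chr7:6674444-6696540 in GRCm38.p6, on the minus strand. Peg3, its neighbour at chr7:6703892-6730462 on the same strand, encodes a Krüppel-type zinc-finger protein that binds DNA and acts in fetal growth and maternal behaviour in mouse. The 250 bases before a RefSeq start of each gene are printed because these neighbours have opposite expressed alleles and Zim1 passed the threshold where Peg3 did not; the difference between them is tested with their ratio. Capitals mark CpG dinucleotides, the sites that DNA methylation acts on. The Zim1 stretch is chr7:6696433-6696682 and the Peg3 stretch is chr7:6730420-6730669, both read 5′ to 3′ on the minus strand. Each overlaps in part the gene interval given above, so it lies before a start inside that interval.
Zim1: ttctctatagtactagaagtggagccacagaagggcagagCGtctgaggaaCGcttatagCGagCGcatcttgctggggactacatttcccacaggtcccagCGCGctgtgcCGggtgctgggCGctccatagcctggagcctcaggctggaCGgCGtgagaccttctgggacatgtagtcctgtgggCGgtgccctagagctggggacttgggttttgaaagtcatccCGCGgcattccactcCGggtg
Peg3: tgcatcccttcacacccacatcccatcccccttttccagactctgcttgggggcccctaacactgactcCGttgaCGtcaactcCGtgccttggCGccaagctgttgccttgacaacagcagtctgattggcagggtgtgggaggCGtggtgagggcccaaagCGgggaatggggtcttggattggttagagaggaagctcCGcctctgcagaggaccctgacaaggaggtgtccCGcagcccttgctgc
The Zim1 stretch held 14 CpG and 60% G and C, and the Peg3 stretch held 8 CpG and 60.4% G and C, against medians of 6 CpG and 52.4% over 32841 RefSeq promoters of that length. The Peg3 stretch also held GGGGCCCC, a core motif that the member Plagl1 can bind, beginning 201 bases before the start. That motif, searched on both strands, was in 0.889% of all those promoters and in no other matched member's. It is a match of letters and does not show binding.

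Zim1 was at 25.7, 31.2 and 22.8 TPM in HFD hearts, at 11.1, 13.1 and 18.9 TPM in sHFD hearts and at 15.97, 16.8 and 10.6 TPM in ND hearts. Every HFD library was above every other library, and the sHFD and ND libraries overlapped. The log2 difference between HFD and ND was 0.85 (95% confidence interval 0.35 to 1.35, adjusted p = 0.0369 in limma). Between HFD and sHFD it was 0.87 (adjusted p = 0.014), and between sHFD and ND it was -0.02 (adjusted p = 0.989). The call against ND held in 5 of 9 fits that left out 1 library and ended without HFD replicate 1 (adjusted p = 0.0995), HFD replicate 2 (0.162), sHFD replicate 2 (0.0506) or ND replicate 3 (0.166). It also ended with no filter on low genes (adjusted p = 0.0711) and in a fit of those diets alone (0.0623). Against sHFD the call ended without HFD replicate 2 (adjusted p = 0.0684) or sHFD replicate 1 (0.0648).

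Peg3 was at 143, 166 and 269.8 TPM in HFD hearts, at 170.4, 218 and 224 TPM in sHFD hearts and at 176, 217 and 163 TPM in ND hearts. The highest and the lowest of the 9 values were both from HFD libraries. The log2 difference was 0.01 between HFD and ND (95% confidence interval -0.46 to 0.49, adjusted p = 0.974 in limma) and -0.13 between HFD and sHFD (adjusted p = 0.681). Its sign changed with scaling, to -0.01 in HFD against ND with quantile normalization and to 0.04 in HFD against sHFD with median-ratio scaling. Within a library, the log2 ratio of Zim1 to Peg3 was -2.77 ± 0.64 in HFD hearts, -3.76 ± 0.24 in sHFD hearts and -3.61 ± 0.22 in ND hearts (SD, n = 3). HFD differed from ND by 0.84 (exact permutation p = 0.2, two-sided, adjusted 0.3 over 9 such tests), where 3 against 3 libraries cannot go below 0.1. HFD replicate 3, at -3.51, lay among the ND and sHFD libraries. Usp29, the next gene of the cluster, was below the filter.

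Plagl1, also named Zac1, is a zinc-finger transcription factor that arrests the cell cycle and regulates other imprinted genes, and it lies at chr10:13090832-13131694. It was at 250.2, 285 and 353 TPM in HFD hearts, at 196, 293 and 254 TPM in sHFD hearts and at 271, 373 and 222 TPM in ND hearts. All diets overlapped. The log2 difference was 0.05 between HFD and ND (95% confidence interval -0.41 to 0.52, adjusted p = 0.893 in limma) and 0.26 between HFD and sHFD (adjusted p = 0.359). Of 3 other genes tested in its neighbourhood, Ltv1, which acts in assembly of the small ribosomal subunit, was lower in HFD than in sHFD hearts (log2 difference -0.61, adjusted p = 0.033). Over all genes, 23.9% were called lower in that comparison. The Ltv1 call held in 3 of 9 fits that left out 1 library, and it ended with no filter, with median-ratio scaling and with quantile normalization.

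Peg10 derives from a retrotransposon and encodes Gag-like and Pol-like proteins that are required for the mouse placenta. It lies at chr6:4747306-4760517 on the plus strand, head to head with Sgce, a sarcoglycan gene that shares its control region and is also paternally expressed. Peg10 was at 26.3, 30.6 and 36.5 TPM in HFD hearts, at 12.3, 15.5 and 13.3 TPM in sHFD hearts and at 31.7, 15.5 and 14.9 TPM in ND hearts. Each HFD library was above each sHFD library, whereas ND replicate 1 lay among the HFD libraries. The log2 difference between HFD and sHFD was 1.12 (95% confidence interval 0.57 to 1.68, adjusted p = 0.00653 in limma). It passed in all 9 fits that left out 1 library and under all 9 other alternatives, with a log2 difference of 1.00 to 1.31. Between HFD and ND the difference was 0.64 (adjusted p = 0.116), and it ranged widely with the ND libraries used. It was 0.98 without ND replicate 1 (adjusted p = 0.00368), 0.48 without ND replicate 2 (adjusted p = 0.302) and 0.45 without ND replicate 3 (adjusted p = 0.375). Between sHFD and ND it was -0.48 (adjusted p = 0.676).

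Sgce did not pass the threshold in either HFD comparison. It was at 65.7, 68.2 and 83.8 TPM in HFD hearts, at 70.8, 75.0 and 83.0 TPM in sHFD hearts and at 88.6, 80.1 and 98.0 TPM in ND hearts. The log2 difference of Sgce was -0.08 between HFD and sHFD (adjusted p = 0.724) and -0.29 between HFD and ND (adjusted p = 0.222). The log2 ratio of Peg10 to Sgce was -1.29, -1.13 and -1.18 in HFD libraries, -2.43, -2.20 and -2.56 in sHFD libraries and -1.45, -2.30 and -2.64 in ND libraries. All HFD ratios were above all others, by 1.20 on average against sHFD and 0.93 against ND (exact permutation p = 0.1 in each, the smallest possible, adjusted 0.225 over 9 tests). Of the 8 tested genes of this neighbourhood, Peg10 included, 3 were higher and 1 was lower in HFD than in sHFD hearts. Over all genes, 10.3% were higher and 23.9% were lower. Asb4, a substrate-binding subunit of a ubiquitin ligase, was 1.05 higher (adjusted p = 0.00395) and the paraoxonase gene Pon2 was 0.47 higher (adjusted p = 0.03). Ppp1r9a, an actin-binding protein gene, was lower (log2 difference -0.82, adjusted p = 0.036). Pon2 and Ppp1r9a each passed in 5 of 9 fits that left out 1 library, and Ppp1r9a did not pass with no filter or with quantile normalization.

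Dlk1 encodes a membrane protein with EGF-like repeats that lacks the domain of classical Notch ligands, acts on Notch signalling as a non-canonical ligand and restrains the differentiation of fat cells. It lies at chr12:109452485-109463336 on the plus strand. The 250 bases before a RefSeq start, chr12:109452573-109452822, are shown with CpG in capitals for comparison with the Zim1 and Peg3 stretches. They lie wholly inside the gene interval given above, before a start within it.
Dlk1: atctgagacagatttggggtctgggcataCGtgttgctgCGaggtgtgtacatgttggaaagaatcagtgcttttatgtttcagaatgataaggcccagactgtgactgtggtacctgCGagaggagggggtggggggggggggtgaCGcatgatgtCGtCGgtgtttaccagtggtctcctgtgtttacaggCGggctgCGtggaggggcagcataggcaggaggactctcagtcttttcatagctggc
This stretch held 8 CpG and 54.8% G and C. It held neither GGGGCCCC nor TATAAA on either strand, the second being present in 12.4% of promoters.

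Dlk1 was at 437, 381 and 377 TPM in HFD hearts, at 249.9, 272 and 240.4 TPM in sHFD hearts and at 376, 219 and 263 TPM in ND hearts. The HFD libraries were well above the sHFD libraries, but the lowest HFD library exceeded ND replicate 1 by less than 1 TPM. The log2 difference between HFD and sHFD was 0.65 (adjusted p = 0.019 in limma), and between HFD and ND it was 0.51 (adjusted p = 0.0905). The difference from ND was 0.73 without ND replicate 1 (adjusted p = 0.00668) and 0.34 without ND replicate 2 (adjusted p = 0.283). Against sHFD the call ended without HFD replicate 1 (adjusted p = 0.0636), HFD replicate 2 (0.0509), sHFD replicate 1 (0.0567) or sHFD replicate 3 (0.0662), with log2 differences of 0.58 to 0.70 over all 9 such fits. Between sHFD and ND the difference was -0.14 (adjusted p = 0.854). The retrotransposon-like gene Rtl1, also paternally expressed from this cluster, differed by 0.03 between HFD and ND (adjusted p = 0.954). Dlk1 was the 1 gene called of 5 tested in this cluster in HFD against sHFD, where 34.2% of all genes were called.

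**Figure D2:**
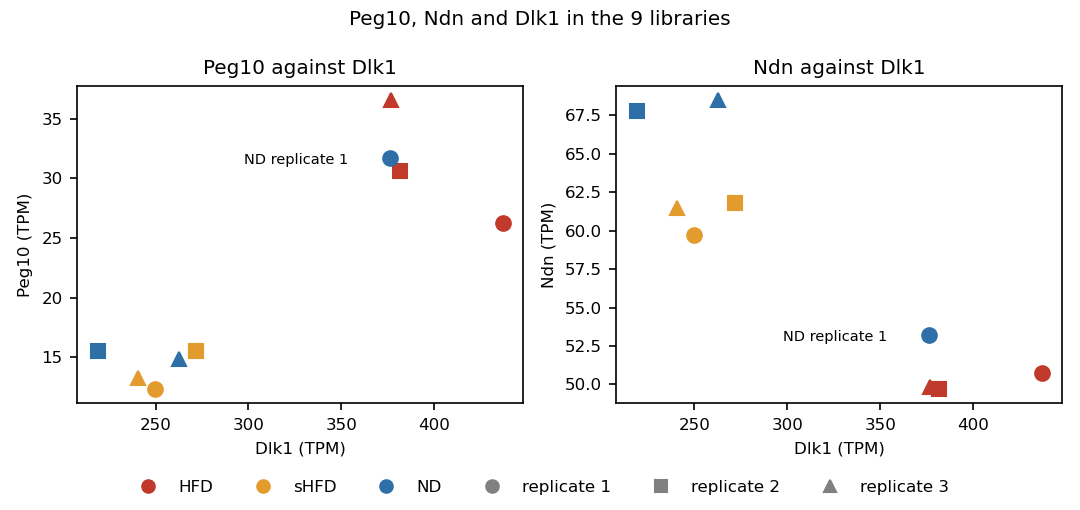
Peg10 (left) and Ndn (right) against Dlk1, all in TPM on linear axes that do not start at 0, with 1 point for each of the 9 libraries, coloured by diet and shaped by replicate number. ND replicate 1 lies beside the HFD libraries for Peg10 and Dlk1, and nearer to them than to the other ND libraries for Ndn.

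ND replicate 1 stood nearer to the HFD libraries than to its own group over all genes. The mean Pearson correlation of log2(TPM + 1) was 0.989 with the HFD libraries, 0.981 with the other ND libraries and 0.977 with the sHFD libraries. The summed level of 16 immediate-early and heat-shock genes, which respond to cell isolation and stress, was 8286, 7743 and 12739 TPM in HFD hearts. It was 2214, 2336 and 2476 TPM in sHFD hearts and 11344, 2391 and 5977 TPM in ND hearts. All 16 were called higher in HFD against sHFD, and 0 were called in HFD against ND. The part of this difference in the levels of Peg10, Dlk1 and the other members was not tested.

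Mest, also named Peg1, encodes a protein of the alpha/beta hydrolase fold and promotes fetal growth in mouse. It lies at chr6:30733506-30748466 on the plus strand. It was at 1469, 1832 and 1383 TPM in HFD hearts, at 922, 1265 and 1340.2 TPM in sHFD hearts and at 1123, 1253 and 1160.2 TPM in ND hearts. The lowest HFD library was above the highest of the other 6. The log2 difference was 0.40 ± 0.19 (SE) between HFD and ND (95% confidence interval -0.01 to 0.81, adjusted p = 0.181 in limma). Between HFD and sHFD it was 0.42 (adjusted p = 0.105), and it passed there with median-ratio scaling (0.58, adjusted p = 0.0431) and under no other alternative tried, the lowest value being 0.25 without sHFD replicate 1 (adjusted p = 0.378). Between sHFD and ND it was -0.02 (adjusted p = 0.983).

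Copg2, a coat protein gene of vesicle transport, runs on the opposite strand and shares 912 of the 3945 exonic bases of Mest, or 23.1%, in the GENCODE vM21 annotation. Whether the libraries kept strand is not given in the sources used here, so reads from that overlap cannot be told apart. Copg2 differed by -0.25 on the log2 scale between HFD and ND (adjusted p = 0.404) and by -0.46 between HFD and sHFD (adjusted p = 0.0767). The log2 ratio of Mest to Copg2 was 5.05 ± 0.33 in HFD hearts, 4.18 ± 0.18 in sHFD hearts and 4.41 ± 0.24 in ND hearts (SD, n = 3). It was higher in all HFD libraries, by 0.64 against ND and 0.87 against sHFD (exact permutation p = 0.1 in each, adjusted 0.225). Of 6 tested genes listed for this neighbourhood, Mest included, 1 was higher and 2 were lower in HFD than in sHFD hearts. Over all genes, 10.3% were higher and 23.9% were lower. Cep41, a centrosomal protein gene, and Tsga13 were lower (log2 differences -1.56 and -1.06, adjusted p = 0.00354 and 0.00422). Klf14, a maternally expressed transcription factor gene, was higher (0.61, adjusted p = 0.0486). It was at 3.12, 3.07 and 2.86 TPM in HFD hearts and at 1.24, 1.78 and 1.90 TPM in sHFD hearts. The Klf14 call held in 2 of 9 fits that left out 1 library. It ended with the smaller pseudocounts, with no filter and with the replicate block. Tsga13 was also lower in HFD against ND (-0.74, adjusted p = 0.0494), which held in 1 of 9 fits that left out 1 library. Its levels lay near the filter of 1 TPM, at 0.41, 0.69 and 0.66 TPM in HFD and 1.06, 2.22 and 1.76 TPM in ND hearts. Over all genes, 9.59% were called lower in HFD against ND.

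Ndn encodes necdin, a protein of the MAGE family that binds E2F factors and p53 and restrains cell division in neurons. It lies at chr7:62348277-62349928 on the plus strand. It was at 50.8, 49.7 and 49.85 TPM in HFD hearts, at 59.7, 61.8 and 61.5 TPM in sHFD hearts and at 53.2, 67.8 and 68.5 TPM in ND hearts. All HFD libraries were below all others, and the HFD values lay closely together, with a coefficient of variation of 1.15%, beside 1.85% in sHFD and 13.6% in ND, where replicate 1 lay apart from the other libraries. The log2 difference was -0.32 ± 0.15 (SE) between HFD and ND (adjusted p = 0.168 in limma) and -0.28 between HFD and sHFD (adjusted p = 0.16). Leaving out 1 library moved the difference from ND between -0.44 without ND replicate 1 (adjusted p = 0.0377) and -0.26 without ND replicate 3 (adjusted p = 0.429). With median-ratio scaling it was -0.16 against ND (adjusted p = 0.449) and -0.12 against sHFD (adjusted p = 0.543). Of 6 tested genes listed for its cluster, Ndn and the spliceosomal protein gene Snrpn included, 0 were called in any comparison. Over all genes, 10.9% were called in HFD against ND and 34.2% in HFD against sHFD. Snurf, which shares a transcript with Snrpn and was not on that cluster list, was lower in HFD than in sHFD hearts (-1.02, adjusted p = 0.00341). Snrpn differed by -0.41 in that comparison (adjusted p = 0.107), with each HFD library below each sHFD library. How reads were assigned between Snurf and Snrpn is not given in the sources used here.

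Grb10 encodes an adaptor that binds the insulin and IGF1 receptors and damps their signalling, and it lies at chr11:11930499-12037428 on the minus strand. It was at 184, 206 and 279 TPM in HFD hearts, at 273, 307 and 265 TPM in sHFD hearts and at 251, 349 and 232 TPM in ND hearts. HFD replicates 1 and 2 were below the other 7 libraries, and HFD replicate 3 lay among them. The log2 difference was -0.31 between HFD and ND (95% confidence interval -0.73 to 0.10, adjusted p = 0.296 in limma) and -0.35 between HFD and sHFD (95% confidence interval -0.77 to 0.06, adjusted p = 0.171). The difference from ND was -0.15 with median-ratio scaling, -0.14 without ND replicate 2 and -0.48 without HFD replicate 3, and the difference from sHFD was -0.19 with median-ratio scaling. Of 5 tested genes listed for its neighbourhood, Grb10 included, 1 was higher and 2 were lower in HFD than in sHFD hearts. Over all genes, 10.3% were higher and 23.9% were lower. Ddc, which makes the enzyme that decarboxylates aromatic amino acids, was lower (-1.37, adjusted p = 0.00501). Against ND its libraries overlapped (-0.525, adjusted p = 0.253). Ikzf1 was also lower against sHFD (-0.62, adjusted p = 0.0482). That call held in 3 of 9 fits that left out 1 library, and it ended with median-ratio scaling and with quantile normalization. The actin nucleator gene Cobl was higher (0.76, adjusted p = 0.0144, passing in 6 of 9 fits that left out 1 library).

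Phlda2 encodes a protein with a pleckstrin homology domain that restrains placental growth, and it lies at chr7:143501545-143503145 on the minus strand. It was at 1.02, 0.28 and 0.77 TPM in HFD hearts and at 0.20, 0.23 and 0.23 TPM in sHFD hearts. In ND hearts it was at 0.67 TPM in replicate 1 and listed at 0 in replicates 2 and 3. Its mean was under the filter, and with no filter the adjusted p was 0.19 for HFD against ND and 0.153 for HFD against sHFD. Listed with it on chromosome 7 were Igf2, the fetal growth factor, and Cdkn1c, an inhibitor of cyclin-dependent kinases, whether or not they share its control region. Igf2 was at 3589, 3489 and 3473 TPM in HFD hearts, at 2602, 3326 and 2682 TPM in sHFD hearts and at 3892, 3359.9 and 3539 TPM in ND hearts. Neither Igf2 (log2 difference -0.03, adjusted p = 0.931) nor Cdkn1c (0.13, adjusted p = 0.615) passed in HFD against ND. Of 12 tested genes on this list, Slc22a18 was the 1 called in HFD against ND, where 10.9% of all genes were. Slc22a18 averaged 0.82 TPM in HFD hearts and 2.52 TPM in ND hearts, near the filter of 1 TPM. In HFD against sHFD, 1 of the 12 was higher and 5 were lower, where 10.3% and 23.9% of all genes were. Among those 5 was Cars, which encodes a transfer RNA synthetase for cysteine (-0.77, adjusted p = 0.00634).

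**Figure D3:**
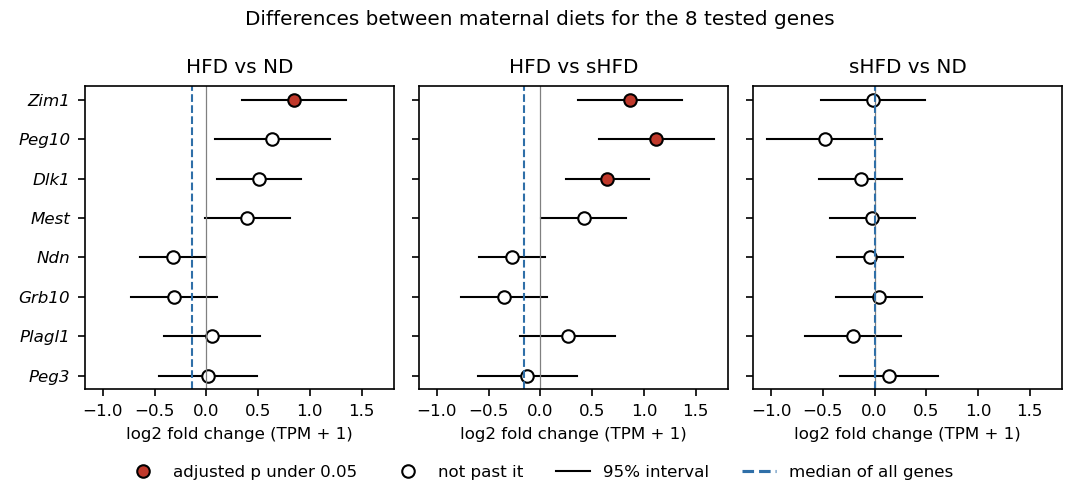
Log2 difference of the 8 tested imprinted growth genes in HFD against ND, HFD against sHFD and sHFD against ND, with 95% confidence intervals from limma; filled points passed an adjusted p of 0.05, and the dashed line is the median of all genes. Zim1 is filled in HFD against ND, and Zim1, Peg10 and Dlk1 are filled in HFD against sHFD.

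The members were also counted by whether the libraries of a pair of diets overlapped. In HFD against ND, Zim1, Dlk1 and Mest were higher in every HFD library, or 3 of 8, where 5% of all genes were, and Ndn was lower, where 22.9% were, with 27.9% of all genes in either direction. Zim1, Peg10, Dlk1 and Mest were higher in HFD against sHFD, or 4 of 8, where 16.6% of all genes were, and Ndn was lower, where 34.7% were, with 51.3% in either direction. In sHFD against ND, 0 of 8 members separated, where 9.4% of all genes did, 4.5% higher and 4.9% lower. By expressed allele, the 6 paternally expressed members gave 0 calls in HFD against ND, where 10.9% of all genes were called. In HFD against sHFD they gave 2 calls, Peg10 and Dlk1, each higher. There 34.2% of all genes were called, 10.3% higher. The 2 tested maternally expressed members gave 1 call in each comparison, Zim1, which was higher, as were 1.28% and 10.3% of all genes.

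Across the 9 libraries, Peg10 and Dlk1 had a Pearson correlation of 0.894, Zim1 and Mest of 0.88, and Dlk1 and Ndn of -0.911. Zim1 and Peg3, neighbours on the chromosome, had one of 0.00421, and Peg3 and Grb10 had one of 0.74. These points share the diets and the library totals and are given as a description. By the largest correlation among 10985 other genes, Btbd3 was most like Peg10 (0.997), Nid2 most like Dlk1 (0.985), Tomm20 most like Zim1 (0.96) and Apip most like Ndn (0.984). The mean standardized profile of the 8 members was most like Cnot7 (0.989), Ddhd1 (0.988), Sgpp1 (0.986), Casc4 (0.985) and Rbpj (0.983). That mean mixes members that ran in opposite directions, such as Dlk1 and Ndn, so it is not a pattern shared by all members.

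Other imprinted genes, 49 listed from knowledge of the mouse, were not limited to genes imprinted in heart. Of these, 47 were measured and 36 tested, and they changed about as often as genes at large. In HFD against ND 1 was higher and 2 were lower, or 8.33% beside 10.9% of all genes. Zdbf2, a paternally expressed zinc-finger gene, was at 6.51, 9.33 and 10.5 TPM in HFD hearts, at 2.56, 5.06 and 4.06 TPM in sHFD hearts and at 4.42, 5.23 and 3.02 TPM in ND hearts (log2 difference 0.91 from ND, adjusted p = 0.0433). Gatm, an enzyme of creatine synthesis, and Slc22a18, a membrane transporter, were lower (-1.29 and -0.95, adjusted p = 0.0123 and 0.0209). Leaving out 1 library gave 0 to 6 calls, with 0 without HFD replicate 1, HFD replicate 2 or ND replicate 3, 6 without ND replicate 1, and 1 in a fit of those diets alone. Against sHFD, 5 were higher and 8 lower in HFD, or 36.1% beside 34.2%. Those higher included Nap1l5, a nucleosome assembly protein gene (1.36, adjusted p = 0.00383), and the decoy receptor gene Tnfrsf23 (0.69, adjusted p = 0.0332). Those lower included Snurf, described with Ndn, and the histone chaperone gene Nap1l4 (-0.47, adjusted p = 0.029). Tnfrsf23 and Nap1l4 each passed in 4 of 9 fits that left out 1 library, Nap1l4 did not pass with median-ratio scaling, and Tnfrsf23 did not pass with no filter. In sHFD against ND 0 of 36 passed.

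**Figure D4:**
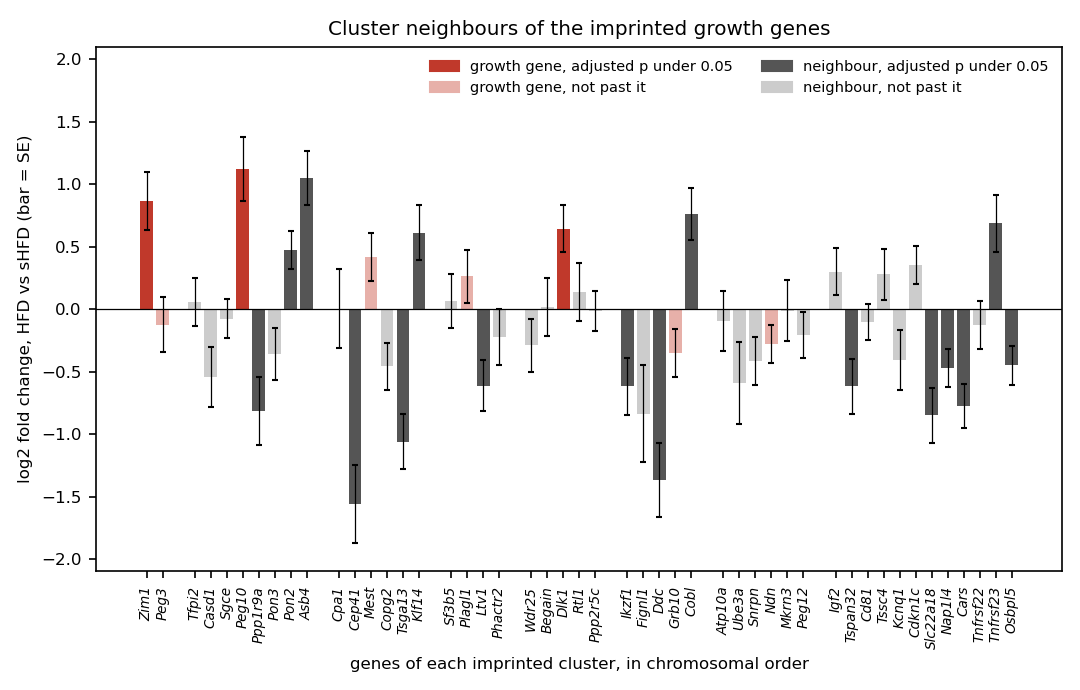
Log2 difference between HFD and sHFD for the tested genes of each chromosomal neighbourhood, in chromosomal order; bars are the difference with its SE, red for the imprinted growth genes and grey for their neighbours, dark where the adjusted p was under 0.05. The bar of Peg10 is at 1.12 and that of Sgce at -0.08, and Mest and Copg2 lie on opposite sides of 0.

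Proteins that keep imprints through development were led by Zfp57, a zinc-finger protein that binds the methylated allele of control regions. It was at 13.1, 13.8 and 17.4 TPM in HFD hearts, at 23.2, 39.2 and 26.1 TPM in sHFD hearts and at 28.2, 31.2 and 32.0 TPM in ND hearts. All HFD libraries were below all others. The log2 difference was -1.005 ± 0.21 (SE) between HFD and ND (adjusted p = 0.0142 in limma) and -0.93 between HFD and sHFD (adjusted p = 0.00557). Of 13 tested genes of this list of 15, 0 were higher and 1 was lower in HFD against ND, where 1.28% and 9.59% of all genes were, with a median log2 difference of -0.31 beside -0.14 over all genes. Against sHFD, 1 was higher in HFD, the chromatin gene Arid4b (0.82, adjusted p = 0.0204), and 4 were lower, where 10.3% and 23.9% of all genes were. Beside Zfp57 these were the DNA methyltransferases Dnmt1 (-0.97, adjusted p = 0.00802) and Dnmt3a (-0.89, adjusted p = 0.0118) and the histone methyltransferase Setdb1 (-0.67, adjusted p = 0.0156). With 1 library left out, Arid4b and Setdb1 each passed in 6 of 9 fits, Dnmt3a in 8, and Zfp57 and Dnmt1 in all.

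Among 12 genes listed as binding partners of Grb10, mostly receptors and kinases, 0 were higher and 2 were lower in HFD against ND. Over all genes, 10.9% were called there. The 2 lower were the receptor genes Ret (-0.83, adjusted p = 0.0438) and Pdgfrb (-0.65, adjusted p = 0.0392). In HFD against sHFD 1 was higher and 4 were lower, where 34.2% of all genes were called. The IGF1 receptor gene Igf1r was higher, at 45.9, 48.6 and 60.5 TPM in HFD hearts against 27.9, 35.8 and 27.9 TPM in sHFD hearts (0.74, adjusted p = 0.0098), with 40.1, 34.4 and 28.2 TPM in ND hearts. Ret, Pdgfrb, the growth kinase gene Mtor (-0.82, adjusted p = 0.0116) and the VEGF receptor gene Kdr (-0.46, adjusted p = 0.0245) were lower. Pdgfrb also marks pericytes and Kdr marks endothelium. Igf1r and Ret passed against sHFD in all 9 fits that left out 1 library, Mtor in 7, and Pdgfrb and Kdr in 5 each, and Kdr did not pass with median-ratio scaling.

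Of 13 tested Notch receptors, ligands and targets, the pathway that Dlk1 acts on, 0 were higher and 2 were lower in HFD against ND, beside 10.9% of all genes called. These were the target gene Heyl (-1.02, adjusted p = 0.0104) and the receptor gene Notch4 (-0.69, adjusted p = 0.0318). In HFD against sHFD 5 were higher and 3 were lower, beside 34.2% of all genes. The target genes Hey1 and Hes1 were higher (1.84 and 1.80, adjusted p = 0.00264 and 0.003), while Heyl was lower (-1.49, adjusted p = 0.000696), as were Notch4 (-0.80, adjusted p = 0.00601) and Notch3 (-0.69, adjusted p = 0.0206, passing in 5 of 9 fits that left out 1 library). Among 9 partners of necdin and Peg3 in growth and cell death, 2 were called in HFD against ND and 3 in HFD against sHFD. Over all genes, 10.9% and 34.2% were called in these comparisons. Trp53, which encodes p53, was lower in HFD against ND (-1.17, adjusted p = 0.0105) and against sHFD (-1.51, adjusted p = 0.00109). Ngfr, a neurotrophin receptor gene, was lower against ND (-0.96, adjusted p = 0.0134). The cell-cycle factor gene E2f3 was lower against sHFD (-1.12, adjusted p = 0.00748), and the ubiquitin ligase gene Siah1a was higher (1.06, adjusted p = 0.00281).

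The calls against ND outside the members depended on single libraries and, for some, on the processing. Zdbf2, Gatm, Slc22a18, Tsga13, Zfp57, Ret, Pdgfrb, Heyl, Notch4, Trp53 and Ngfr each lost the call both without HFD replicate 2 and without ND replicate 3. With 1 library left out, Heyl and Trp53 passed in 7 of 9 fits, Zfp57, Gatm, Slc22a18 and Ngfr in 6, Notch4 in 5, Zdbf2 in 4, Ret in 3, Pdgfrb in 2 and Tsga13 in 1. Notch4, Pdgfrb, Tsga13, Ret, Slc22a18 and Zdbf2 also lost the call in a fit of those diets alone. Notch4, Pdgfrb, Tsga13, Ret and Zdbf2 lost it with no filter, Notch4, Pdgfrb and Tsga13 with median-ratio scaling, and Notch4, Tsga13, Ret and Slc22a18 with quantile normalization. Pdgfrb and Tsga13 lost it with the replicate block, and Pdgfrb with no intensity trend.

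The labelled cell type was checked against markers. Over all genes, 1.28% were called higher and 9.59% lower in HFD against ND, and 10.3% higher and 23.9% lower in HFD against sHFD. The summed level of 10 cardiomyocyte markers was 34327 to 48163 TPM in HFD hearts, 44354 to 57308 TPM in sHFD hearts and 28474 to 46189 TPM in ND hearts, and 0 of 10 were called in HFD against ND, while 2 of 10 were lower in HFD against sHFD. Fibroblast markers summed to 10189 to 11287 TPM in HFD, 8339 to 11049 TPM in sHFD and 10213 to 12837 TPM in ND hearts. Immune cell markers summed to 219 to 251 TPM in HFD, 322 to 418 TPM in sHFD and 407 to 567 TPM in ND hearts, and 10 of 10 were lower in HFD against ND and 7 of 10 in HFD against sHFD. Smooth muscle and pericyte markers summed to 1917 to 2140.1 TPM in HFD, 2189 to 2908 TPM in sHFD and 1736 to 1965 TPM in ND hearts. Of these, 4 of 10 were lower in HFD against ND, although the sum was not, and 7 of 10 in HFD against sHFD. Epicardial markers summed to 481 to 519 TPM in HFD, 302 to 494 TPM in sHFD and 339 to 410.0 TPM in ND hearts, with 1 of 8 higher and 1 lower in HFD against ND and 2 higher and 1 lower in HFD against sHFD. Red cell markers summed to 4252 to 7717 TPM in HFD, 9309 to 12970 TPM in sHFD and 8047 to 18762 TPM in ND hearts, with 1 of 7 lower in HFD against ND and 6 of 7 in HFD against sHFD. Endothelial markers summed to 3739 to 4440 TPM in HFD, 3501 to 3936 TPM in sHFD and 3453 to 5253 TPM in ND hearts, with 0 of 10 called in HFD against ND and 1 lower in HFD against sHFD. Skeletal muscle markers summed to 1172 to 1888 TPM in HFD, 1594 to 2244 TPM in sHFD and 1165 to 1551 TPM in ND hearts. Of these, 0 of 5 tested were called in any comparison. Brown fat markers summed to 44.6 to 57.7 TPM in HFD, 52.8 to 69.6 TPM in sHFD and 39.7 to 71.0 TPM in ND hearts. Of these, 1 of 3 tested was lower in HFD against ND and 2 of 3 in HFD against sHFD. No measured marker of these lists was at 0 in every library. The part of these cells in the members' differences was not tested, and fewer cells of a type and less RNA per cell cannot be told apart in bulk libraries.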

How the data were processed

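The authors deposited 1 table of TPM for 18738 genes in 9 libraries. RSEM 1.3.1 and the build GRCm38 are named, with no role, per the submitters' processing notes. Libraries were made from mRNA isolated from total RNA, per the labels' protocols. Neither aligner, annotation nor strandedness is given there. Each column sums to 1000000 TPM within rounding, so levels are relative, and read depth and its precision are unknown. Columns CON, MID and HIGH were read as ND, sHFD and HFD with their numbers. No pair of libraries was identical.

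Values were taken as log2(TPM + 1), a scale that understates changes of low genes. The 13655 genes that averaged 1 TPM or more were fitted in limma 3.58.1 under R 4.3.3 with 3 diets and an intensity trend. Tests were two-sided with Benjamini-Hochberg adjustment over all genes at 0.05. Ratios within a library were compared by exact permutation tests. Figures and descriptions used Python 3.11.15. The script was tested on simulated data.

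Members, gene lists and tests were chosen with earlier results of these data known. Named were all members, the genes of each list past the threshold (at most 5 a list and comparison, by smallest p), tested neighbours, and the genes most alike in pattern among those averaging 5 TPM or more. Not every gene that meets this rule is reported. Sequences and positions are from RefSeq (GRCm38.p6), in which 8 of 9 members had a promoter entry, all but Peg10. Alternatives were pseudocounts of 0.1 and 0.5, no filter, a filter of 5 TPM, median-ratio scaling, quantile normalization, a fit of the compared diets alone, no trend, a replicate block, and leaving out each library.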

Additional observations from a re-analysis of the deposited data

How the results depend on the processing

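Of 432 results for single members under the alternatives, 396 kept their direction and their side of the threshold. The number of members called in HFD against ND, 1 in the report, was 0 with no filter, 0 in a fit of those diets alone and 0 to 4 when 1 library was left out. In HFD against sHFD it was 1 to 3 with 1 library left out (1 without HFD replicate 2 or sHFD replicate 1), and in sHFD against ND it stayed at 0 throughout. Genes called in all in HFD against ND numbered 763 with no filter and 420 in a fit of those diets alone. Leaving out 1 library gave 32 to 3842: 32 without HFD replicate 2, 127 without HFD replicate 1, 877 without sHFD replicate 3, 3842 without ND replicate 1, 624 without ND replicate 2 and 39 without ND replicate 3. In HFD against sHFD it gave 2696 to 5458 (2696 without HFD replicate 2, 3037 without sHFD replicate 1, 3092 without sHFD replicate 3). In sHFD against ND it gave 0 to 360 (360 without ND replicate 2), with 0 at a pseudocount of 0.1, with no filter, with a filter of 5 TPM and with the replicate block, and 2 in a fit of those diets alone. Apart from the smaller fits and the longer list of genes tested with no filter, the cause was not tested.

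Small differences changed sign. In HFD against ND, Peg3 was -0.0102 with quantile normalization and -0.25 to 0.20 with 1 library left out, and Plagl1 was -0.12 to 0.255. In HFD against sHFD, Peg3 was 0.0387 with median-ratio scaling and -0.39 to 0.061 with 1 library left out. In sHFD against ND the ranges with 1 library left out were -0.31 to 0.0806 for Dlk1, -0.0753 to 0.22 for Grb10, -0.12 to 0.15 for Mest, -0.16 to 0.0214 for Ndn and -0.22 to 0.14 for Zim1. The replicate numbers did not show a clear pairing of the samples, which groups of 3 cannot exclude. Deviations from the diet mean in same-numbered libraries of different diets had correlations of -0.287 to 0.413, 4 of 9 over 0.1. The best match of a library in another diet had its own number in 7 of 18 cases. With the replicate block 1686 genes were called in HFD against ND and 4722 in HFD against sHFD, and Zim1 kept its call against ND (adjusted p = 0.0432). Groups of 3, unknown depth and unseparated alleles limit what these data show.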
